A study of Mus musculus with 12 samples.

Results

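The transcripts of the mature mouse egg were described from the 3 control MII libraries of the study, 3 of its 12 libraries, with no comparison between genotypes. All 22801 genes with a row in the table of MII oocytes were ranked by the mean normalized count of control replicates 1 and 2, and the rank of each was then read in replicate 3. Of these genes 15290 were nuclear protein-coding genes by the GENCODE M21 annotation, and these are the genes ranked below. The study sequenced germinal vesicle and metaphase II (MII) oocytes of 2 genotypes to profile RNA after loss of Lsm14b, which encodes an RNA-binding protein of cytoplasmic granules. The control females were C57BL/6 mice of postnatal day 35 whose genotype label was Lsm14bfl/fl, with no Cre named for them. Each tube of lysis buffer held 15 oocytes, so a library is a pool. The design text calls the 3 libraries of a group biological replicates, and whether each pool came from its own females is not given in the sources used here. The controls are therefore eggs with floxed Lsm14b alleles, and eggs with unmodified alleles were not analysed here.

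A fully grown oocyte stops transcription before it matures, so an MII egg lives on messages made and stored during growth. Many of these are kept with short poly(A) tails by repressor proteins and are translated, or removed by deadenylation, as meiosis proceeds and the egg is fertilised. The egg is also known for genes that few other cells use, among them the zona pellucida glycoproteins, the growth factors that act on the cumulus cells and the subcortical maternal complex under the egg's membrane.

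The 3 libraries held 93117615, 88494525 and 124872889 reads assigned to genes. Replicate 3 stood apart. The ribosomal RNA gene CT010467.1 took 6.56%, 8.77% and 24.3% of reads in replicates 1, 2 and 3, and Gm42418, a noncoding gene, took 0.488%, 1.25% and 5.21%. These were the only noncoding genes among the 10 highest of all genes. Nuclear protein-coding genes took 89.6%, 86.5% and 66.4%, which left 83400053, 76554778 and 82889566 coding reads, so the coding depth of the libraries was similar. The 95% Wilson interval of each of these shares was no wider than 0.0083 percentage points to either side, and it covers counting error only. A count of 0 allows up to 3 reads, or 0.0322, 0.0339 and 0.024 counts per 1000000 assigned reads (CPM) in the 3 libraries. Of the 15290 coding genes, 8868 had at least 1 CPM in each library and are called detected, or 58.0%. A further 5724 (37.4%) had reads but less than 1 CPM in at least 1 library and are called trace. The other 698 (4.57%) had no read in any control library. These shares are of genes with a row, and many coding genes had none: of 1092 olfactory receptor genes in GENCODE, 214 had a row. The rows also cover MII libraries of the other genotype, and how genes came to have a row was not tested. The shares therefore do not describe every coding gene of the genome. Below, all coding genes means these 15290 with a row. Across the detected genes, Spearman's correlation of normalized counts was 0.981 between replicates 1 and 2, 0.83 between replicates 1 and 3, and 0.861 between replicates 2 and 3. These values are over genes, which are not replicates and which share the depth and composition of their library. Normalized counts and CPM are relative to their library, so the amount of RNA per egg cannot be read from them. Below, values given as 3 numbers are the authors' normalized counts in replicates 1, 2 and 3 in that order.

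The coding RNA of the egg was spread over many genes. The 10 highest coding genes of each library took 6.10%, 5.94% and 6.19% of its nuclear coding reads, and the 100 highest took 24.8%, 23.5% and 21.6%, or 23.3% ± 1.64 (SD, n = 3). The highest 484, 534 and 625 genes were needed to reach 50% of the coding reads, and 1000 genes reached 65.4%, 63.7% and 60.4%. Replicate 3 was the flattest of the 3 at 100 genes and at 1000 genes.

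**Figure D1:**
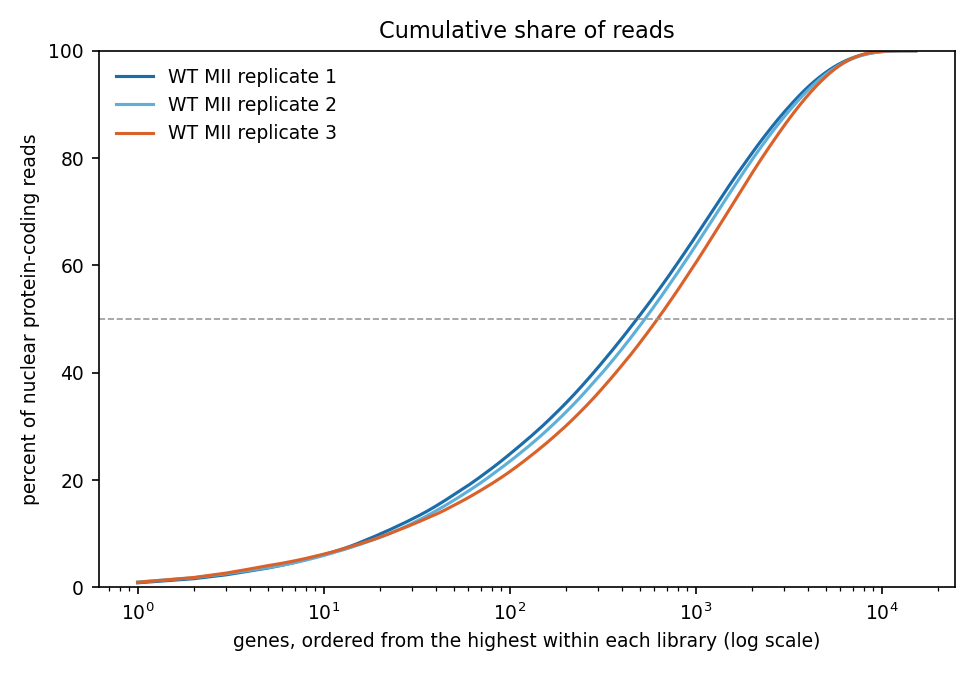
Cumulative percent of nuclear protein-coding reads (vertical axis) against the number of genes, ordered from the highest within each library (horizontal log axis), with 1 line per control library. The dashed line marks 50%, which replicate 1 crosses at 484 genes, replicate 2 at 534 and replicate 3 at 625.

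The 25 highest coding genes are given here by what their products are known to do, a grouping made after the ranking was seen. Zbed3, a component of the subcortical maternal complex, ranked 1 with 351516, 462084 and 404901 normalized counts, a mean of 406167 ± 55295 (SD, n = 3). Zfp57, a KRAB zinc finger protein that guards imprinted DNA methylation, ranked 2 with 421801, 363619 and 145070.2. Padi6, a peptidylarginine deiminase family member needed for the cytoplasmic lattices of the egg, ranked 3 with 375938, 342268 and 261037. Zbed3 and Padi6 had the ranks 1 and 5 in replicate 3, whereas Zfp57 had the rank 13 there. These genes lie on chromosomes 13, 17 and 4.

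Several of the 25 encode proteins of membranes, of the matrix or of transport. Umodl1, which encodes a uromodulin-like protein, had 360190.3, 291647 and 102064, and the value of replicate 3 was the lowest of the 3. Slc30a3, a zinc transporter, had 262529.9, 213539 and 93501, again lowest in replicate 3. Lamb1, the beta-1 chain of laminin, had 237725, 224069.6 and 196022 and was among the steadiest of the 25, with a coefficient of variation (CV) of 9.70% over the 3 libraries. Rdx, which links actin to the membrane, had 200899.7, 170528 and 112672. Surf4, a cargo receptor of the endoplasmic reticulum, had 194758, 165363 and 120449, and Ermp1, a metallopeptidase of the same organelle, had 147652, 134542 and 69873. Kit, the receptor through which growing oocytes receive Kit ligand from granulosa cells, had 157399, 129918 and 56508. Rdx, Surf4, Ermp1 and Kit were also lowest in replicate 3.

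Others of the 25 bind mRNA or act on proteins. Dcp1a, a decapping co-activator, had 243771, 215375 and 117305. Eif4enif1, the eIF4E transporter that keeps messages untranslated, had 196545, 126022 and 31571, the widest spread of the 25 with a CV of 70.1%. Rbm38, an RNA-binding protein, had 177561, 140241 and 144861 and spread little, with a CV of 13.2%. Usp46, a deubiquitinase, had 259515, 201259 and 73647. Fbxw24, an F-box protein of an oocyte-enriched gene family, had 221438, 189286 and 102243. Hsp90aa1, a cytosolic chaperone, had 194982, 168021 and 192295 and the smallest CV of the 25, 8.02%. Of the 50-base stretches of the longest coding Hsp90aa1 transcript, 60.0% also occurred in a transcript of another gene. It was the only one of the 25 with more than 50% of its sequence shared in this way, so its count depends on how reads with several matches were treated, which is not given in the sources used here.

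Some of the 25 encode proteins of chromatin or DNA. Spin1, a reader of methylated histone H3, had 195468, 215695 and 375917, and replicate 3 held the highest of these values. Tet3, the dioxygenase that oxidises methylated cytosine in the zygote, had 195238, 107973 and 72599. Hivep1, a zinc finger transcription factor, had 167261, 126665 and 57318, and Kmt2d, a histone H3 lysine 4 methyltransferase, had 147788, 116544 and 53948. Tet3, Hivep1 and Kmt2d were lowest in replicate 3. The growth factor Gdf9 had 153230.2, 144549 and 320758, with replicate 3 above the others. In carbohydrate metabolism, G6pdx, which opens the pentose phosphate pathway, had 167531, 128760.4 and 44239.7, and Gyg, the primer protein of glycogen, had 141168, 149929.5 and 75639. Natd1, an N-acetyltransferase domain protein, had 262715, 191826 and 46490.2, and Ywhaz, a 14-3-3 adaptor, had 184462, 149741 and 90781. In G6pdx, Gyg, Natd1 and Ywhaz replicate 3 was below the other libraries.

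**Figure D2:**
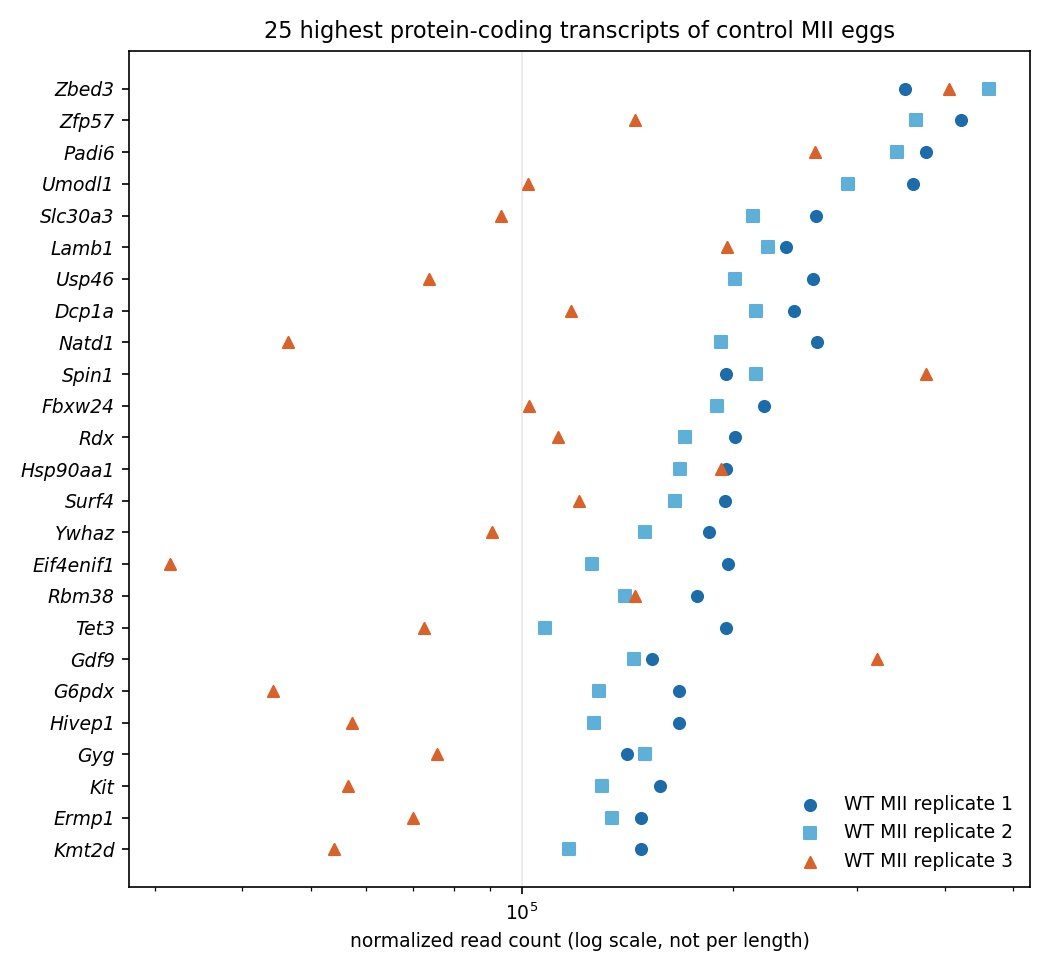
Normalized read counts (horizontal log axis, not corrected for length) of the 25 highest nuclear protein-coding genes in the 3 control MII libraries, ordered by the mean of replicates 1 and 2. Replicate 3 (triangles) lies below that mean for 22 of the 25 genes, and above it for Spin1, Gdf9 and Hsp90aa1.

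Longer transcripts collect more reads, so levels of different genes were compared per kilobase of the longest coding transcript, as the mean of replicates 1 and 2. On that scale Zbed3 stood at 209152 normalized counts per kilobase, Padi6 at 153923, Zfp57 at 151217, Fbxw24 at 138012 and Slc30a3 at 113947. The same 3 genes therefore led both orders. The level of H1f8, the linker histone of the oocyte, ranked 6, at 89261 per kilobase, and its normalized counts were 85590.2, 114710.5 and 358485. Rbpms2, an RNA-binding protein, stood at 58112 per kilobase and Zp1, a zona pellucida glycoprotein, at 57730.2. D6Ertd527e stood at 52743 and Laptm4b, a lysosomal membrane protein, at 50883. Of the 100 highest genes by count, 62 were also among the 100 highest per kilobase. The 100 highest genes had long messages: their median transcript length was 4219 bases and their median coding length 2054 bases, against 3389 and 1530 bases in the other detected genes. A ranking by counts favours length by its construction.

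The promoters of 4 genes that the results turn on, each with a single start in the RefSeq table of GRCm38.p6, show the sequence in front of egg genes of very different levels: Padi6 (chr4:140742644-140742893, minus strand), Bmp15 (chrX:6320725-6320974, minus strand), Btg4 (chr9:51115751-51116000, plus strand) and Zp3 (chr5:135979855-135980104, plus strand). The 250 bases before the start are given 5′ to 3′ on the gene's strand, and capitals mark matches to the E-box letters CANNTG, to the TATA letters TATAAA or to the homeodomain letters TAATTG on either strand. CANNTG and TAATTG can share bases.
Padi6: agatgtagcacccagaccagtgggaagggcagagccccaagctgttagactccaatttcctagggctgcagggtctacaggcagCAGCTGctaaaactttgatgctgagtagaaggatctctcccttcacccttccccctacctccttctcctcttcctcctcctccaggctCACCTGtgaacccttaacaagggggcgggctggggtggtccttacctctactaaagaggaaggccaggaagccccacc
Bmp15: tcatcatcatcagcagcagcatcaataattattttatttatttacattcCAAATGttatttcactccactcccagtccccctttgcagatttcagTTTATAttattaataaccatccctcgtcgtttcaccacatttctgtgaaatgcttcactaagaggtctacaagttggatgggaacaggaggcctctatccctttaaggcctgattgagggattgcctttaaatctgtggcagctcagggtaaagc
Btg4: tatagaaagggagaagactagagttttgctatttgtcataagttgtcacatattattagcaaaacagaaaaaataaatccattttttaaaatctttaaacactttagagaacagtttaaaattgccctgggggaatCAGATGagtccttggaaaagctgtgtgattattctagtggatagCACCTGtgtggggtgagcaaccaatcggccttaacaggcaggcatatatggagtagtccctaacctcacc
Zp3: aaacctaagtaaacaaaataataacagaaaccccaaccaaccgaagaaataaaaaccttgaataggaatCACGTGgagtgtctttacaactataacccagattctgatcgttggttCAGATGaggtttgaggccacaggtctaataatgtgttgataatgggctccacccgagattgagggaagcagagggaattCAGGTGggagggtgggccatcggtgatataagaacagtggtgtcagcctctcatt

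Padi6 held 2 matches to CANNTG, Btg4 2, Zp3 3 and Bmp15 1, and Bmp15 also held 1 match to TATAAA on the opposite strand. Such matches were common. CANNTG was in 57.4% of the 122 promoters of the 100 highest genes, of which 81 had an entry, in 57.5% of the promoters of the other detected genes and in 66.2% of all 32851 promoters in the table. TATAAA was in 5.74%, 6.53% and 12.4% of the same sets, and TAATTG in 6.56%, 4.87% and 7.17%. The median G+C content was 58.8%, 60.0% and 52.4%. Of the 698 genes without a read 508 had a promoter entry (72.8%), under the 80% needed here for such a comparison. A match describes letters and not a bound site.

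The order of the genes in replicate 3 overlapped in part with that of replicates 1 and 2. Of the 25 highest genes 12 were among the 25 highest of replicate 3, of the 100 highest 58, of the 500 highest 322 and of the 1000 highest 686. For comparison, 95 of the 100 were among the 100 highest in replicate 1 and 95 in replicate 2, but the order was built from those libraries. On the log2(count + 1) scale the median difference of replicate 3 from the mean of the others was -0.97 over the 100 genes, with 89 lower and 11 higher, and the median over all 8868 detected genes was 0.06. Because the genes were chosen for high counts in replicates 1 and 2, lower values in replicate 3 are favoured by that choice. The same holds for the highest members of each list and family named below. The choice of scaling shifted all genes together. In CPM the median of all detected genes was shifted by -0.25 and per nuclear coding read by 0.16. The log2 differences and the order of the libraries below are on the authors' scale, so an order that rests on a small difference can change with it. Under all 3 scalings the median was above 0 for the lists of ribosomal proteins, mitochondrial mRNAs, oxidative phosphorylation, the proteasome and histones. The same held for the egg surface, secreted ligands, MII arrest, stored mRNA, transcription factors, other oocyte-enriched genes, metabolism and ubiquitin. For 4 of these lists the median in CPM was close to 0. It was 0.0011 for stored mRNA (11 of 22 genes higher) and 0.0269 for transcription factors (7 of 13). For ubiquitin it was 0.0349 (7 of 14) and for secreted ligands 0.0716 (3 of 5). On the authors' scale it was 0.70 for the egg surface and 0.71 for other oocyte-enriched genes, near the 0.76 of oxidative phosphorylation. The median was below 0 under all 3 for the Zfp and small RNA lists. It changed sign for all detected genes and for the lists of the subcortical maternal complex, maternal chromatin, deadenylation, egg activation and the spindle.

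The 25 highest genes of replicate 3 on its own included genes known from the oocyte and genes of broad use such as Hsp90aa1. Zbed3 ranked 1, Spin1 2, H1f8 3, Gdf9 4 and Padi6 5. Bcl2l10, a BCL2 family member of the oocyte, ranked 8 with 38607, 48053 and 181975 normalized counts, and its rank by replicates 1 and 2 was 147. Khdc1b, a KH-domain gene, ranked 9 with 56951, 62815 and 179278. Bmp15, a partner of Gdf9, ranked 10 with 113206, 122875 and 159949. Btg4, the adaptor that brings the CCR4-NOT deadenylase to maternal messages, ranked 16 with 35511, 41287 and 125895. Of these 25 genes 20 were among the 100 highest by replicates 1 and 2, and the lowest of them was Btg4 at place 180.

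Among the 200 highest genes the largest log2 differences of replicate 3 from the mean of the others were 2.07 for Bcl2l10, 1.85 for E330034G19Rik and 1.84 for H1f8. E330034G19Rik had 42193, 45717 and 158036 normalized counts. The lowest were -3.32 for Sap130, -3.07 for Gdap2 and -2.57 for Trim60. Sap130, a subunit of the SIN3A corepressor complex, had 87755, 55025 and 7144. Gdap2 had 50545, 30987 and 4853 and Trim60, a tripartite motif protein, had 91430.2, 66407 and 13320.2. For Sap130, Gdap2 and Trim60 replicate 2 also lay below replicate 1, as it did for 155 of the 200 highest genes.

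Short messages were more often higher in replicate 3 than long ones. The detected genes were split by transcript length into 4 groups of near equal size. In the group with the shortest transcripts, 303 to 2221 bases, the median log2 difference was 0.58 and 66.3% of 2217 genes were higher in replicate 3. In the next groups it was 0.03 and -0.04, and in the group above 5005 bases it was -0.22, with 42.2% of 2216 genes higher. Between replicates 2 and 1 the same groups had medians of 0.02, -0.03, -0.04 and -0.04. The groups also differed in level, with a median count by the mean of replicates 1 and 2 of 717, 1283, 1772 and 2343 from shortest to longest. The part of level in the length trend was not tested. Over 8863 genes Spearman's correlation of transcript length with the difference was -0.224 for replicate 3 and -0.0549 for replicates 2 and 1. The share of ribosomal RNA moved with these values in the same library, and its part in them was not tested.

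**Figure D3:**
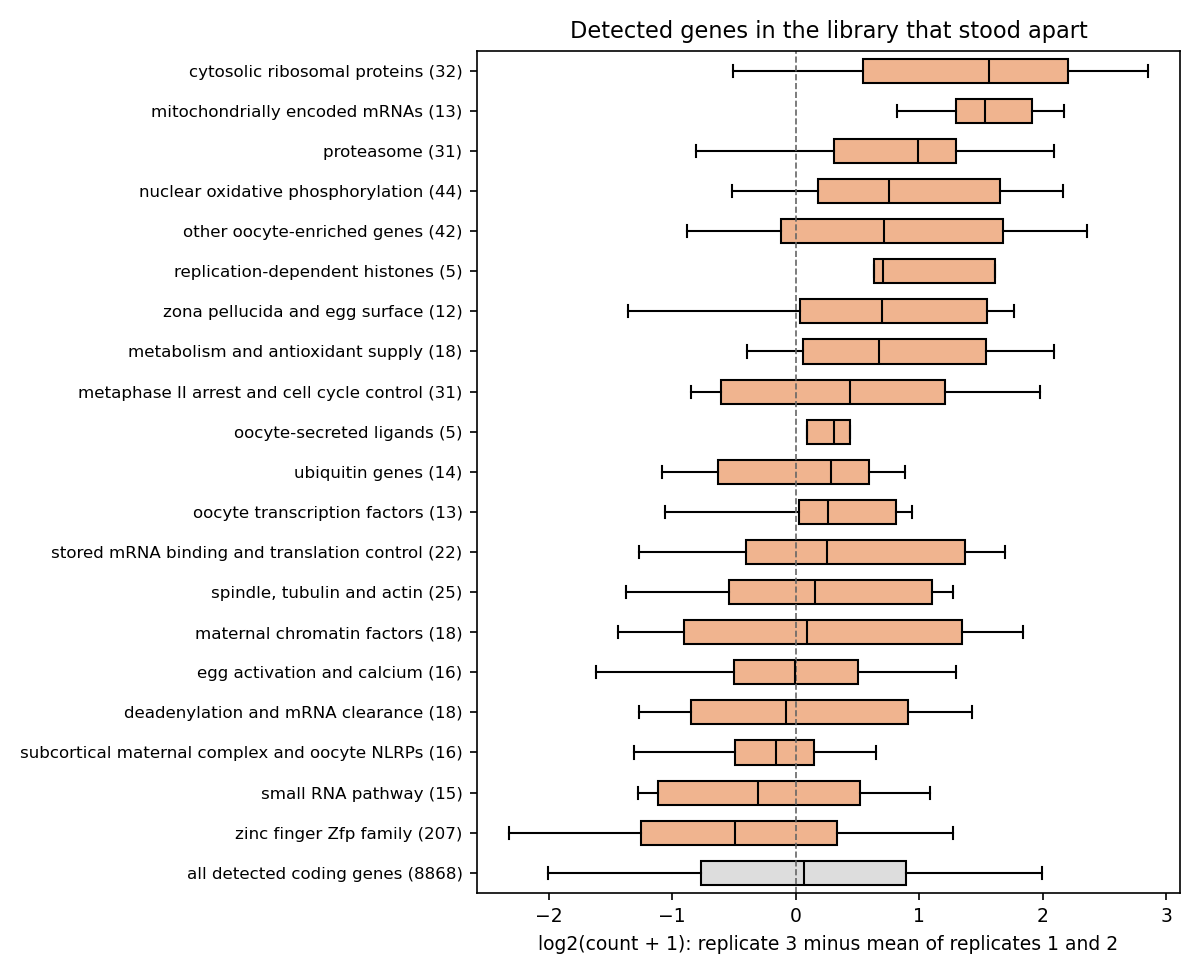
Log2(normalized count + 1) of replicate 3 minus that of the mean of replicates 1 and 2 (horizontal axis) for the detected genes of each list, number in brackets. Boxes span the middle 50% of genes, the line is the median and whiskers reach from the 5th to the 95th percentile. The median is 1.56 for cytosolic ribosomal proteins, -0.49 for the Zfp list and 0.06 for all detected coding genes (grey), and the last changes sign in CPM, to -0.18.

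The label of the cells was checked against marker genes of the oocyte. These genes are also expressed before maturation, so they do not check the MII stage. All 5 egg markers were detected, as were 58.0% of all coding genes. Gdf9 ranked 19, Bmp15 30 and Nlrp5, a core subunit of the subcortical maternal complex, 35 with 117316, 105670.3 and 74240.3, while Btg4 ranked 180. Zp3, a core glycoprotein of the zona, ranked only 2469 with 3921, 3661 and 5262, and all 3 libraries gave this lower value. Per kilobase Zp3 stood at 2865, against 57730.2 for Zp1 and 34860.3 for Zp2. None of the sampled 50-base stretches of Zp3 occurred in another gene's transcript (0.0%).

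Markers of other cells were mostly low. Of 17 markers of cumulus and granulosa cells with a row, 4 were detected. Serpine2, a protease inhibitor, had 18622, 26334 and 33228. Nr5a2, a nuclear receptor, had 1572, 1697 and 1834, and the aromatase gene Cyp19a1 had 734, 918 and 3071. Kitl, which encodes Kit ligand, had 272, 132 and 250.2. The summed level of the list was 394, 553 and 601 CPM, most of it Serpine2, against 7711, 7896 and 10715 for the 5 egg markers. Lhcgr and Fst, which encode the luteinizing hormone receptor and follistatin, had no read in any library. Fshr, the follicle stimulating hormone receptor, had 34.2, 4.79 and 0. Of 8 markers of theca, stroma and endothelium 4 were detected, where 58.0% of all coding genes were. The summed level of the list was 90.1, 98.3 and 68.5 CPM. The 4 detected genes were all the endothelial markers with a row. Pecam1, an adhesion molecule of endothelium, led with 3422, 4060.3 and 2841. Tie1 had 703, 446 and 695, Tek had 667, 488 and 627, and Kdr had 114, 178 and 124. The stromal genes Dcn and Pdgfra were at trace, and the steroidogenic genes Cyp17a1 and Cyp11a1 had no read. Of 6 blood markers the complement gene C1qb alone was detected, with 1904, 1493 and 1049, while the pan-leukocyte gene Ptprc had 0, 0 and 3.59. Neither of 2 sperm markers was detected. Of 13 genes known from 2-cell embryos 6 were detected, with a summed level of 129.7, 138 and 128.8 CPM. Sp110 led with 4104, 3883 and 5375, and Zscan4d had 1111, 1333 and 205, lowest in replicate 3. The part of other cells in the values of these genes was not tested.

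Of 13 genes of the egg surface 12 were detected (92.3%), and this and the counts of the following lists are to be read against the 58.0% of all coding genes. Zp1 had 127443, 99206 and 28963 and was lowest in replicate 3. Zp2, a zona glycoprotein that takes part in sperm binding, had 82058, 73628 and 30386, again lowest in replicate 3. Plat, the tissue plasminogen activator, had 52257, 52969 and 82313, highest in replicate 3. The integrin gene Itga6 had 14311, 19903 and 20769.7. At the low end were 2 tetraspanins. Cd9, which gamete fusion needs, had 126, 79.6 and 353, and 15.6% of its sampled stretches were shared with other genes. Cd81 had 45.4, 74.2 and 57.4 and was at trace.

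Of 7 genes listed as oocyte-secreted ligands 5 were detected. The list includes Kitl and Inhba, which are also on the marker list of cumulus and granulosa cells. After Gdf9 and Bmp15 came Tgfb2, a transforming growth factor beta, with 12658, 11841 and 13078, which spread little. Bmp6 had 7455, 7303 and 3015 and was lowest in replicate 3. Kitl, given above, was the other detected member. Whether the Kitl reads came from the egg or from those cells cannot be told apart. The remaining ones were at trace. Fgf8, a fibroblast growth factor, had 35.4, 103 and 186, and Inhba, a subunit of activin, had 5.89, 0 and 0.

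The subcortical maternal complex and the NLRP genes of the oocyte supplied more of the 100 highest coding genes than any other of the 20 lists. Of 17 genes 16 were detected, 7 were among the 100 highest and 11 among the 1000 highest. Nlrp4f had 118788, 122158 and 77315 and ranked 28. Nlrp4g, which GENCODE M21 does not type as coding, had 26372, 21590.3 and 9681. In both of these NLRP genes replicate 3 was the lowest. Khdc3, which encodes a further subunit of the complex, was the exception with 37.7, 85.5 and 381, and 42.5% of its sampled stretches were shared with other genes.

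Of 20 maternal chromatin factors 18 were detected and 6 were among the 100 highest. Dnmt1, the maintenance DNA methyltransferase, had 116722, 112653 and 107352 and was nearly level across the libraries. Uhrf1, which guides Dnmt1 to DNA, had 112872, 87889.7 and 43290.0, and replicate 3 was the lowest. At the low end, Kdm5b, a histone demethylase, had 269.9, 90.3 and 36.9, and Ehmt2, a histone H3 lysine 9 methyltransferase, had 0, 72.4 and 10.8. Both of these were at trace.

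Of 14 oocyte transcription factors 13 were detected. Foxo3, which holds primordial follicles dormant, had 78623, 85813 and 92172, with the highest value in replicate 3. Nobox, a homeobox factor of folliculogenesis, had 47847, 39369.7 and 19384, with the lowest value in replicate 3. Sall4, a zinc finger factor, had 37301, 39287 and 61782, and Yap1, a coactivator of Hippo signalling, had 28483, 27003 and 28205. Yap1 was nearly level while Sall4 was highest in replicate 3. Sohlh2, which acts early in oocyte growth, had 117, 132 and 239. Sox2, a pluripotency factor, had 11.2, 78.4 and 42.6 and was at trace.

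The genes of meiotic arrest were detected without reaching the top. Of 33 genes of MII arrest and cell cycle control 31 were detected and 13 were among the 1000 highest, but none was among the 100 highest. Plk1, a mitotic kinase, had 44807, 36285 and 24138, lowest in replicate 3. Ccnb1, the cyclin of maturation promoting factor, had 34119, 33344 and 33265, nearly the same in the 3 libraries. Bub1b, of the spindle checkpoint, had 28857, 33771 and 65512, highest in replicate 3. Wee2, the oocyte's inhibitory kinase of Cdk1, had 23110.1, 26775 and 33766. Of the lowest members, Ccne1, a cyclin of entry into S phase, had 109.6, 86.1 and 253. Spdya, an activator of cyclin-dependent kinases, had 4.71, 0 and 0 and was at trace.

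Of 26 genes of the spindle, tubulin and actin 25 were detected. The alpha tubulin Tuba3a had 32762, 24512 and 11053 and Tuba1c had 29793, 21779 and 17506. The beta tubulin Tubb5 had 24418, 24706 and 6417. These 3 tubulins were lowest in replicate 3. Spire1, an actin nucleator, had 20381, 24946 and 17148. Kif11, a motor that builds bipolar spindles, was among the lowest of the list with 379.5, 455 and 1223, highest in replicate 3. Tubb4a, a beta tubulin, had 242, 121 and 0. Of these 26 genes 7 shared at least 50% of their sampled stretches with other genes, so the split between tubulin copies is uncertain.

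Genes that hold stored messages were almost all detected, 22 of 23. After Eif4enif1 came Igf2bp2, an mRNA-binding protein, with 108689.7, 93248 and 41934. Eif4e1b, the oocyte's own cap-binding protein, had 45119, 39918 and 24226. Pabpc1l, the embryonic poly(A)-binding protein, had 39922, 32787 and 11162. These 3 were lowest in replicate 3. The Musashi genes were low, Msi2 with 402, 269 and 773 and Msi1 with 25.9, 37.7 and 29.7, the latter at trace.

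Of 20 genes of deadenylation and mRNA clearance 18 were detected. Cnot3, a CCR4-NOT subunit, had 48539, 41018 and 18528, lowest in replicate 3. Pan2, a poly(A) nuclease, had 19899, 20599.6 and 17071, again lowest there. Btg4 was higher in replicate 3, with a log2 difference of replicate 3 from the mean of the others of 1.71. Zfp36l2, which binds AU-rich messages, had 129.7, 106 and 52.8, and the uridylyltransferase gene Tut4 had 11.8, 0 and 0. Zfp36l2 and Tut4 were at trace.

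Of 18 small RNA genes 15 were detected. Dicer1, which makes the small interfering RNAs of the oocyte, had 95451, 69807 and 31879 and ranked 55. Tdrd1, a Tudor protein of the piRNA pathway, had 16142, 13285 and 6218, and Ago3, an Argonaute, had 10074, 9807 and 8063. Drosha, which cuts primary microRNAs, had 8004, 6601 and 3166. Each of these 4 was lowest in replicate 3. Of the Piwi genes 2 were at trace, Piwil2 with 87.8, 26.9 and 27.7 and Piwil4 with 7.66, 0 and 34.4.

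Of 21 genes of egg activation and calcium 16 were detected. Atp2a2, the calcium pump of the endoplasmic reticulum, had 20625, 25456 and 22352. Camk2g, the kinase that acts downstream of the calcium signal at fertilisation, had 18141, 17933 and 25378. Itpr1, the calcium release channel, had 12433, 11416 and 7513. Camk2g was highest in replicate 3, while Itpr1 was lowest there. Camk2a, a brain form of the kinase, had 47.1, 2.99 and 3.08, and the sodium-calcium exchanger gene Slc8a1 had no read.

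Of 28 genes of metabolism and antioxidant supply 18 were detected (64.3%), a share near the 58.0% of all coding genes. Ldhb, a subunit of lactate dehydrogenase, had 38592, 34652 and 59071, whereas the gene of the other common subunit, Ldha, had no read in any library. Of the sampled stretches of Ldha 14.7% were shared with other genes. Pdhb, of pyruvate dehydrogenase, had 11078, 9476 and 7806. Prdx1, a peroxiredoxin, had 6895, 6587 and 13356, and the pyruvate kinase gene Pkm had 6296, 6884 and 10418. Prdx1 and Pkm were highest in replicate 3. The glucose transporter gene Slc2a3 had 11.8, 0 and 0 and was at trace.

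Of 17 ubiquitin genes 14 were detected. Uba1, the E1 enzyme, had 65816, 54870.4 and 33715, and Usp9x, a deubiquitinase, had 60699.7, 55947 and 29522. Skp1a, the adaptor of SCF ligases, had 31821, 31501 and 58428, and Dcaf1, a substrate receptor of CUL4 ligases that oocytes need, had 29808, 27311 and 13514. Skp1a was highest in replicate 3 and the others were lowest there. The ubiquitin fusion gene Rps27a had 4.71, 0 and 24.1 and was at trace, and 71.1% of its sampled stretches were shared with other genes.

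A further list of 44 oocyte-enriched genes had 42 detected members, 27 of them among the 1000 highest. After Spin1, Fbxw24 and Khdc1b came Oas1d, an oligoadenylate synthetase family gene of the oocyte, with 45227, 52081 and 119689, highest in replicate 3. The homeobox genes Obox3 and Obox6 were the lowest, with 24.8, 2.99 and 2.56 for Obox3 and no read for Obox6. Over the 14 lists by function the 301 listed genes supplied 9 of the 25 highest, 27 of the 100 highest and 105 of the 1000 highest coding genes. The lists were written for the egg, so this is a description of them and not a test.

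Cytosolic ribosomal protein genes were low. Of 84 genes 32 were detected (38.1%), 51 were at trace and 1 had no read. Rpl4 had 23111, 22971 and 24681 and was nearly level across the libraries. Rplp0 had 14899, 14896 and 10498 and Rpl17 had 6466, 6968 and 4462. Both of these were lowest in replicate 3. The median over the list was 56.4 normalized counts in replicates 1 and 2, against 278 over all coding genes. Most members were higher in replicate 3, which was above both other libraries for 68 of the 84. Of 81 of these genes with a transcript to compare, 36 shared at least 50% of their sampled stretches with other genes, as did 6.87% of 15021 coding genes, and the part of shared reads in the low counts was not tested. Common reference genes, chosen here after their values were seen, varied. Actb, of the actin cytoskeleton, had 2895, 2294 and 2897. Gapdh, of glycolysis, had 218, 93.9 and 141, with 81.0% of its sampled stretches shared. Eef1a1, a translation elongation factor, had 44317, 39447 and 23491.

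Most energy genes were also higher in replicate 3. Of 87 nuclear genes of oxidative phosphorylation 44 were detected (50.6%), and replicate 3 was above both others for 67. Without 5 pseudogenes that the symbols caught, this held for 65 of 82. Atp5b, of the ATP synthase, had 9531, 9832 and 16104. Sdha, of complex II, had 5433, 4690.3 and 7918, and Uqcrc2, of complex III, had 4702, 4752 and 5208. Ndufs8, of complex I, had 2442, 3186 and 2226, lowest in replicate 3. All 13 mitochondrially encoded mRNAs were detected, and all 13 were highest in replicate 3. The cytochrome oxidase gene mt-Co1 had 25571, 42476 and 152866, and the cytochrome b gene mt-Cytb had 43345, 53200.1 and 85387. The complex I genes mt-Nd5 and mt-Nd1 had 28249, 41096 and 90583 and 27314, 33855 and 115273. At the low end mt-Nd6 had 1480.5, 2527 and 10386 and mt-Atp8 had 1162, 1088 and 2764. Together the 13 took 0.364%, 0.477% and 1.01% of reads.

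Of 40 proteasome genes 31 were detected, and replicate 3 was above both others for 28. Without 2 pseudogenes and Psmc3ip, a gene of meiotic recombination that the symbols also caught, this held for 27 of 37. The regulatory subunits Psmd1 and Psmd2 had 5934, 6001 and 9958 and 5053, 4189 and 10151, highest in replicate 3. The assembly chaperone Psmd5 had 8339, 7647 and 6274 and the deubiquitinating subunit Psmd14 had 5786, 4483 and 793, lowest in replicate 3. Over all 15290 coding genes replicate 3 was above both others for 38.3% and below both for 39.0%, and over the detected ones for 47.7% and 42.7%. Among detected members it was above both for 27 of 32 ribosomal protein genes, 36 of 44 genes of oxidative phosphorylation and 24 of 31 proteasome genes. The median log2 difference among detected members was 1.56 for ribosomal proteins, 1.53 for mitochondrial mRNAs, 0.76 for oxidative phosphorylation and 0.99 for the proteasome, and in CPM it was 1.31, 1.28, 0.51 and 0.74.

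Zinc finger genes went the other way. Of 358 genes with a Zfp symbol 207 were detected (57.8%), a share close to the 58.0% of all coding genes, and replicate 3 was below both others for 194 and above both for 101. Among the 207 detected members it was below both for 120 and above both for 70. After Zfp57 came Zfp750, an epidermal factor, with 92188, 65407 and 22751. Zfp592 had 66822, 62378 and 20089 and Zfp957 had 50207, 44007 and 37899. Zfp57, Zfp750, Zfp592 and Zfp957 were each lowest in replicate 3. Among the detected members the median log2 difference of replicate 3 was -0.49, and -0.74 in CPM and -0.33 per coding read. Histone genes that are expressed during DNA replication were scarce: of 51 only 5 were detected (9.80%), led by H3c14 with 1148, 1699 and 2215 and H3c15 with 771, 1142 and 1458, and 42 were at trace. Messages of these genes mostly end without a poly(A) tail, and whether the libraries were primed on poly(A) is not given in the sources used here.

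Families known from other tissues were mostly undetected. For the families below, genes without a row in the table were not analysed here, so the counts concern listed genes only. After symbols that belong to no member were left out, 65 of 522 listed members were detected (12.5%), against 58.0% of all coding genes. Of the 522 members 99 had no read, against 698 of the 15290 coding genes (4.57%), and the 99 are part of the 698. With these included, 385 of the 522 stayed under 1 CPM in all 3 libraries. That share was not computed for all coding genes, so the 385 cannot be set against them. All listed members together took 2406, 2003 and 965.9 CPM, lowest in replicate 3. By the symbol patterns as first written the count was 73 of 534.

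The sensory receptors were the largest of these families. Of 214 listed olfactory receptor genes, out of 1092 coding ones in GENCODE, 17 were detected and 51 had no read. Olfr288 led with 13701, 11032 and 4914. Olfr976 had 8027, 6139.9 and 3815 and Olfr287 had 2824, 2195 and 554, and replicate 3 was lowest in each of these 3. Of 84 listed vomeronasal receptor genes 7 were detected, led by Vmn2r51 with 3714, 1823 and 770.2. Vmn1r139 had 806, 666 and 509.7 and Vmn2r25 had 615, 477 and 1123, the latter highest in replicate 3. None of 13 taste and trace amine receptor genes was detected, and the highest, Tas1r2, had 171, 206 and 0. Of the vomeronasal genes 29.5% shared at least 50% of their stretches with other genes, and of the olfactory genes 2.82%.

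Several families of skin, liver, lens and defence had no detected member. None of 7 keratin-associated proteins, 6 defensins, 16 major urinary proteins, 5 crystallins or 13 chemokines was detected. The highest of each family were at trace. Krtap10-10 had 27.7, 41.3 and 0 and the defensin gene Defb41 had 11.2, 0 and 31.8. Mup5 had 20.0, 0 and 0 and Cryga, of the lens, had 22.4, 0 and 70.2. The chemokine gene Ccl28 stood higher in replicates 1 and 2, with 662, 693 and 30.3. Of the major urinary protein genes 10 had no read, but 93.8% of them shared at least 50% of their stretches with other genes. Keratins and cytochrome P450 genes had some. Of 24 keratins 6 were detected, led by Krt84, a hair keratin, with 12522, 8232 and 8722. Krt80 had 1251, 963 and 255 and Krt12, a keratin of the cornea, had 167, 148 and 364. Of 31 listed cytochrome P450 genes, all of families 2 or 4, 9 were detected, led by Cyp4f39 with 3888, 3235 and 2248. Cyp2b23 had 1668, 1452 and 122 and Cyp2f2 had 1086, 1189 and 781, and all 3 were lowest in replicate 3. The only hemoglobin gene with a row, Hbq1a, had 18.9, 10.8 and 40.5.

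Families of body plan, muscle, placenta, matrix and nerve had between 1 and 12 detected members. Of 16 Hox genes Hoxa7 alone was detected, with 1832, 1779.8 and 5393, while Hoxd13 had 21.8, 21.5 and 58.5. Of 7 muscle myosin heavy chains Myh11, the smooth muscle form, was detected with 10547, 7853 and 4849, and the next, Myh2, had 54.2, 79.6 and 200. Of 16 prolactin family and pregnancy-specific glycoprotein genes 3 were detected. Psg20 had 13754, 10118 and 1121 and Psg17 had 13185, 8904 and 1275, while Psg16 had 1478, 1346 and 992. The log2 difference of replicate 3 from the mean of the others was -3.41 for Psg20 and -3.11 for Psg17. Of 29 collagens 12 were detected, the largest share of any family, led by Col6a6 with 3744, 3668 and 3213. Col25a1 had 1166, 871 and 1075 and Col4a3, of basement membranes, had 715, 1304 and 109. Of 23 ionotropic GABA and glutamate receptor genes 6 were detected, led by Gabra3 with 3599, 2815 and 395. Of 15 lectin genes 3 were detected, led by Clec16a with 1917, 1839 and 1224, which bears the family's symbol but is known for autophagy. Neither of 2 Y-linked genes was detected, with 3.54, 2.99 and 8.72 for Kdm5d and 0, 0.60 and 0 for Uty.

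**Figure D4:**
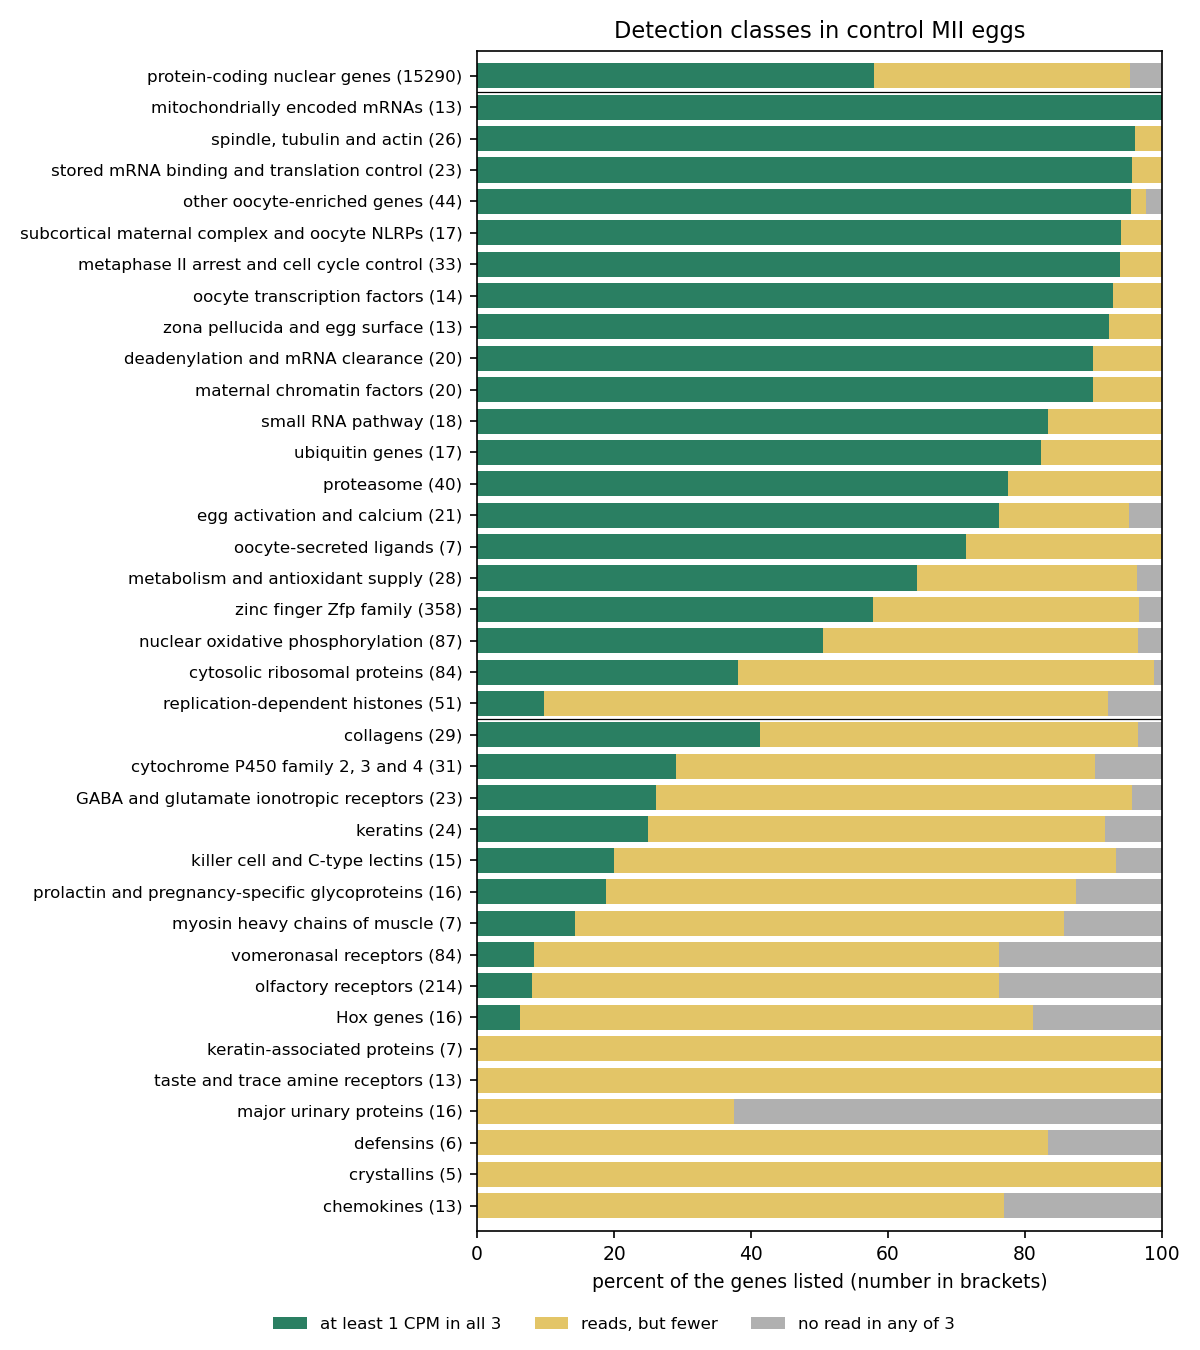
Percent of the listed genes (number in brackets) that had at least 1 CPM in all 3 control MII libraries, fewer reads, or no read, for all nuclear protein-coding genes (top), 20 gene lists (middle) and the families with at least 5 listed members (bottom). The detected share is 58.0% for all coding genes, 94.1% for the subcortical maternal complex list and 7.94% for olfactory receptors.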

How the data were processed

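Per the file headers, the MII table gives each gene 1 value per library and a mean. The values deposited by the authors are log10 of a normalized count to which 1 had been added, and were turned back before use. The mean signal in the authors' table equalled the mean of the values so obtained over the 6 MII libraries, to a relative difference of 1.4e-14. The aligner, build, annotation, counter and strand handling were not given in the sources used here, so overlapping genes, antisense genes and near-identical copies are uncertain. In each library 100% of values were whole multiples of a constant step, within 0.05 of a whole number, which gave whole reads and depths. The recovery was checked on simulated data. The table of germinal vesicle oocytes was not used here.

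Symbols were matched to GENCODE M21 (22232 directly, 22413 with RefSeq synonyms, 200 unmatched, 9 names turned into dates by a spreadsheet). Per kilobase levels used the longest coding transcript. A gene was detected at 1 CPM or more in each library, and at trace with reads below that. Log2 differences used a pseudocount of 1. Shared sequence is the percent of 50-base stretches (1 in 8 sampled) found on either strand in a GENCODE transcript of another gene. For the histone list it covers 6 genes only, since few names matched. Promoter letters were not compared for genes without reads, of which 72.8% had an entry where 80% was required. Genes named were the 25 highest and the next 5 per kilobase, the 5 egg markers, up to 4 highest and 2 lowest members of each list, up to 3 highest of each family, and the 3 largest moves each way in replicate 3 among the 200 highest. A few genes that this rule names are not reported here. Members, lists and markers were chosen with earlier results of these data known. Symbol patterns for 21 families also caught Crybg1, Crybg2, Crybg3 and Grina, and for interferons and immune receptors caught no member; these were left out after the values were seen. No test was run, since 1 group has no contrast. Tools were Python 3.11.15, numpy 2.4.6 and pandas 2.3.3.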

Additional observations from a re-analysis of the deposited data

How the results depend on the processing

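Of 37 alternative values 27 stayed within the replicate spread or within 1.5 times the count and 10 moved further. Most of the 37 were counts or percentages, which cannot change sign. Only the alternatives of the median log2 difference could, and that median stayed below 0. Of the 100 highest genes 62 remained by level per kilobase and 58 in replicate 3 alone, a setting added after the data were seen. Leaving out replicate 1 kept 79 and leaving out replicate 2 kept 84. Leaving out replicate 3 keeps all 100 by construction, since the order was built from replicates 1 and 2. The reads held by the 100 highest genes rose from 23.3% of coding reads to 35.1% when all genes entered the total, and were 22.5% to 24.1% with 1 library left out. A minimum of 10 CPM lowered the detected coding genes from 8868 to 5360, the detected list members from 596 of 930 to 396 and the detected family members from 65 of 522 to 15. A minimum of 0.1 CPM raised the family members to 112, and the symbol patterns as first written gave 73. With 1 library left out these counts were 9039 to 9803 for coding genes, 604 to 640 for list members and 68 to 97 for family members, in each case highest without replicate 3. Coding genes without a read numbered 698, and 1098 to 1495 with 1 library left out, since fewer libraries give fewer chances of a read. The median log2 difference of replicate 3 over the 100 highest genes was -0.97, and -1.21 in CPM. The sign of list medians under other scalings was looked at after the data were seen and is given beside those medians. These medians are outside the 37 values, and the sign changed for all detected genes and for several lists. The minimum limits the low end: 1 CPM is 93.1, 88.5 and 124.9 reads in the 3 libraries. CPM is taken over all assigned reads, ribosomal RNA included. Coding depth was similar, so the minimum was stricter for coding genes in replicate 3, and its part in the counts was not tested. No paired analysis was possible because only 1 group was described and nothing was compared between groups.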

Other observations

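Noncoding transcripts and immune receptor genes were read from the same libraries after the coding profile was seen, and are given as values. Of 2805 long noncoding genes other than Gm42418, 413 were detected, and of all 22801 genes with a row 9736 were (42.7%). The highest by replicates 1 and 2 were C86187 with 101339, 121402 and 155123 normalized counts, E330011O21Rik with 96750.4, 77138 and 31080.5 and Gm1965 with 47605, 51228 and 43618. C86187 took place 39 among all genes and place 16 in replicate 3. Among the 10 highest of these genes the largest difference of replicate 3 from the others was that of AY036118, with 14228, 18826 and 362658, place 618 by replicates 1 and 2 and place 5 in replicate 3. In that library the ribosomal RNA gene CT010467.1 and Gm42418 were also at their highest, and a relation between these genes was not tested.

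Of 63 genes that GENCODE types as immunoglobulin or T cell receptor genes 10 were detected, where 42.7% of all genes with a row were. The heavy chain constant genes led, with 10810.1, 9877 and 3215 for Ighg2b, 8816, 7390.2 and 1326 for Ighg1 and 1000.1, 1058 and 1015 for Ighg3, while Ighm had 618, 533 and 1454. Among the variable genes Trav9-2 had 275, 358 and 189. The leukocyte marker Ptprc had 0, 0 and 3.59. The strand setting of the counting is not given in the sources used here, so reads of a gene and of a partner on the opposite strand cannot be told apart.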
